A study of Mus musculus with 6 samples.

Results

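The genes described here are 40 interferon-stimulated genes of the mouse, out of 34745 genes counted by mRNA sequencing in liver sinusoidal endothelial cells (LSECs). They were taken by name from a fixed list, and where a symbol had more than 1 entry (Gbp6), the entry with the highest total count was used. LSECs are the fenestrated endothelium of the liver capillaries. The study set LSECs of mice with floxed Tgfbr2 alleles (Tgfbr2f/f, here f/f) against LSECs of littermates called Tgfbr2 ECKO, an endothelial knockout of the type II TGF-beta receptor. All mice of both groups had been injected with CCl4, a liver toxin that leads to fibrosis, 2 times a week for 6 weeks, so no group without injury enters the comparison. Each group had 3 libraries, numbered 1 to 3. The sources used here do not name the promoter that drives the recombinase, the age and strain of the mice or the way the LSECs were purified. Nothing in the labels ties a library to 1 mouse, so each p-value measures only the spread between libraries, which may be technical.

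Interferons are secreted proteins that warn cells of infection or damage. Type I and type III interferons signal through JAK kinases to a complex holding STAT2 and IRF9, which binds the interferon-stimulated response element (ISRE) of its target genes. Interferon-gamma acts through the gamma-activated site (GAS) of its target genes. Endothelial cells carry the receptors of both pathways, and the targets include antiviral proteins, sensors of foreign nucleic acid, parts of the pathway itself, and large GTPases that act on vacuoles holding microbes. In tissue RNA such genes often rise and fall together, and for that reason the value of every library is given.

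The sequences before the start sites of these genes show the binding elements that the family shares. RefSeq promoter windows (GRCm38.p6, 250 bases before to 50 after the start site) were found for 30 of the 40 genes. Oas2, Mx1, Mx2, Usp18, Gbp4, Gbp6, Iigp1, Zbp1, Parp14 and Rtp4 had none. The ISRE core searched was GAAA, 2 bases of any kind and GAAA again, on both strands. The GAS core was TTCNNNGAA, which reads the same on both. An ISRE core was present in 19 of the 30 genes (63.3%), against 1079 of 27025 genes with a window (3.99%). A GAS core was present in 10 of the 30 (33.3%), against 2582 of 27025 (9.55%). Both cores can overlap, as they do in Bst2, and 7 genes held both: Oas1a, Bst2, Gbp5, Gbp7, Igtp, Tgtp1 and Tgtp2. Among the 9 interferon-inducible GTPases with a window, 8 held an ISRE core (88.9%) and 5 a GAS core. Ifit2, Ifi35 and Isg20 had a GAS core only, and 8 genes had neither: Cmpk2, Ifi44, Ifi47, Irf7, Irf9, Oasl1, Oasl2 and Xaf1. A match to these letters is a description and not a binding site that was measured.

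The 6 stretches below are the 250 bases before the start site, 5′ to 3′ on the strand of the gene, with ISRE and GAS cores in capitals. Isg15 is shown for 3 overlapping ISRE cores that begin 78, 72 and 66 bases before the start. The near-copies Ifit3 and Ifit3b are shown because the same pair of ISRE cores stands in both. Igtp and Tgtp2 are shown for a GAS core followed after a gap of 2 bases by an ISRE core, an arrangement also found in Tgtp1. Gbp7 is shown for 2 GAS cores upstream of 1 ISRE core.
Isg15 (chr4:156200819-156201068, minus strand): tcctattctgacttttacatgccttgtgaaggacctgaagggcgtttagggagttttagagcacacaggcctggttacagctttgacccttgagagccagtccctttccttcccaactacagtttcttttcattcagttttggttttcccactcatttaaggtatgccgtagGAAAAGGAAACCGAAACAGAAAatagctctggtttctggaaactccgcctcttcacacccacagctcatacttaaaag
Ifit3 (chr19:34583279-34583528, plus strand): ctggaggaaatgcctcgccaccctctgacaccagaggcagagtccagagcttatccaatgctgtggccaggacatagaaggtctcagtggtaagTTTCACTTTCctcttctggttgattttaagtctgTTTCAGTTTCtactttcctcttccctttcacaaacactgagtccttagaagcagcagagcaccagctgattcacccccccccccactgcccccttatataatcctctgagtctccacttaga
Ifit3b (chr19:34607707-34607956, plus strand): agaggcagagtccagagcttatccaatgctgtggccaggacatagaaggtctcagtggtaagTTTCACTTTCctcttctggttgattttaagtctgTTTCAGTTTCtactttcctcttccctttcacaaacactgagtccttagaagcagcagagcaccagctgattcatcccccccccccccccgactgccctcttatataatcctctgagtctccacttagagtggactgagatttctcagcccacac
Igtp (chr11:58199306-58199555, plus strand): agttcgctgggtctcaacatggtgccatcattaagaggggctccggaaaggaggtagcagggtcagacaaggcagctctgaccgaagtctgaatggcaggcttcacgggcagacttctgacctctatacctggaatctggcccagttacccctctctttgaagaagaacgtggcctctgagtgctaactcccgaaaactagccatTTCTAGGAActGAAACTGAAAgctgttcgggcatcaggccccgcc
Tgtp2 (chr11:49064213-49064462, minus strand): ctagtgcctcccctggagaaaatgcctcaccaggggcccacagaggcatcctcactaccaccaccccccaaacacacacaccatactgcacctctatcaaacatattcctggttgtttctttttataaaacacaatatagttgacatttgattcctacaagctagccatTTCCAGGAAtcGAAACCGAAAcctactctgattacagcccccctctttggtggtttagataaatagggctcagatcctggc
Gbp7 (chr3:142530086-142530335, plus strand): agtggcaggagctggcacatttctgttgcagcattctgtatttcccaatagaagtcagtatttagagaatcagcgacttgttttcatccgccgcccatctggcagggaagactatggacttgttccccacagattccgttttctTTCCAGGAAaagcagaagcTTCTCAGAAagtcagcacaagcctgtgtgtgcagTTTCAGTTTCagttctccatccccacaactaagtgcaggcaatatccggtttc

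**Figure D1:**
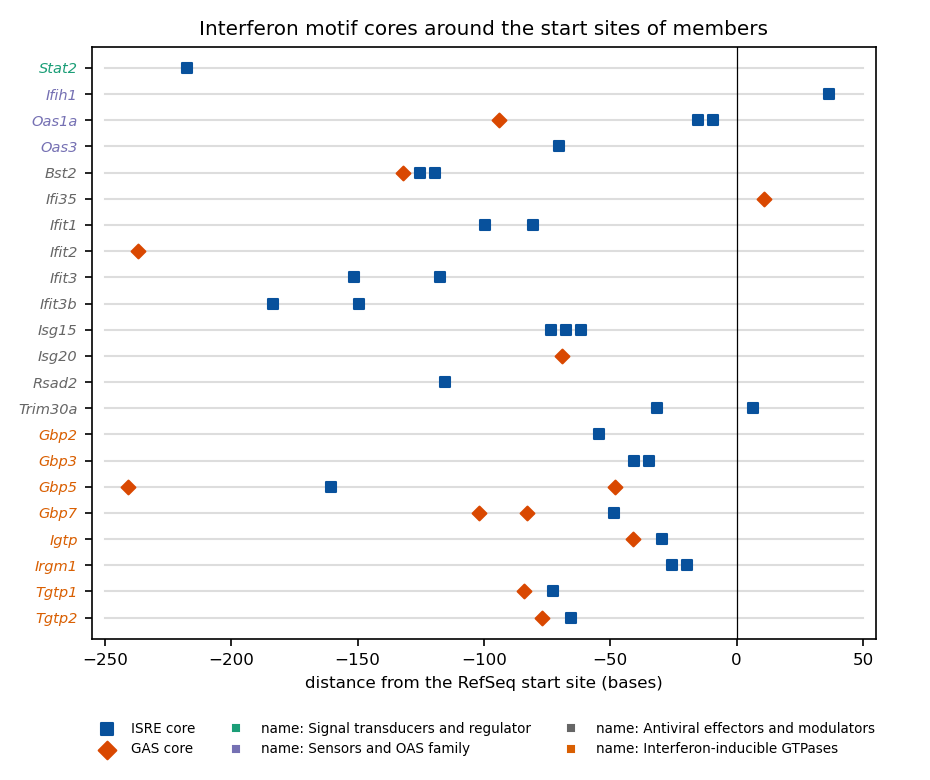
Positions of ISRE cores (squares) and GAS cores (diamonds) from 250 bases before to 50 bases after the RefSeq start site (x axis, bases) for the 22 genes that hold either core, with gene names coloured by role. In Igtp, Tgtp1 and Tgtp2 the GAS core lies directly before the ISRE core, and in Isg15, Irgm1, Gbp3, Bst2 and Oas1a ISRE cores overlap one another.

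Library totals ran from 17171850 to 25062755 counts, with f/f replicate 1 the deepest, and mitochondrial genes took 23.5%, 14.2% and 11.5% of the counts in f/f replicates 1, 2 and 3 and 32.4%, 19.7% and 23.7% in ECKO replicates 1, 2 and 3. The part of this share, high in f/f replicate 1 among f/f libraries, in the results was not tested. Levels are given as CPM, counts scaled to a common library size with TMM, a factor that aligns the bulk of genes between libraries. Tgfbr2 itself was at 387, 442 and 452 CPM in f/f replicates 1, 2 and 3 and was no lower in the ECKO replicates, at 498, 487 and 511 CPM, so a deletion could not be read from gene-level counts and the groups are named here by their labelled genotype (the f/f libraries are titled WT). A count over the whole gene does not show whether a floxed exon is missing. All 12 LSEC markers tested were expressed, with a summed level of 21686 to 27838 CPM across the 6 libraries. In RNA from many cells, fewer cells of a type and less RNA per cell cannot be told apart.

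Per unit of length, Bst2 was the most abundant of the 40 genes, and Oas3 was the least. Measured as FPKM (a level scaled for gene length and sequencing depth, here averaged over the 6 libraries), Bst2, which encodes the tether that holds budding viruses at the membrane, stood at 444. Ifit3 at 65.7 FPKM, Iigp1 at 64.1, Rtp4 at 49.6, Isg15 at 41.6, Ifit2 at 39.2, Tgtp2 at 32.2 and Gbp2 at 31.0 followed. At the other end were Oas2 at 1.49 FPKM, Mx1 at 0.240 and Oas3 at 0.0612. Oas3 had 13, 14 and 10 counts in f/f and 12, 7 and 4 counts in ECKO, and it alone of the 40 did not pass the filter on low counts. Added up, the 40 genes made 0.417%, 0.253% and 0.332% of all counts in f/f replicates 1, 2 and 3, and 0.264%, 0.247% and 0.289% in ECKO replicates 1, 2 and 3. The highest share was in f/f replicate 1 and the lowest in ECKO replicate 2. These are shares of all counts, mitochondrial genes included. As TMM-scaled sums the 40 genes stood at 4368, 2190 and 2866 CPM in f/f and 3167, 2463 and 3097 CPM in ECKO. On that scale the lowest library was f/f replicate 2.

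Few of the 40 genes passed the test between the genotypes. With TMM scaling and all 6 libraries, the list as a whole had no lean in either direction. Of the 39 tested, 1 was lower in the ECKO libraries (Oas2) and 0 were higher at an adjusted p under 0.05 (edgeR's quasi-likelihood test with Benjamini-Hochberg adjustment over all genes, two-sided). Over all 13692 genes tested, 4.03% passed that threshold, 2.79% lower and 1.24% higher. Before adjustment 4 of the 39 had a p under 0.05 (Oas2, Ifi35, Irf9 and Cmpk2), where 23.5% of all genes did. The median log2 fold change of ECKO over f/f was 0.00 for the 39 genes and 0.01 for all genes, with 19 of the 39 genes below 0 (48.6% of all genes were) and 20 above. By role, the median ran from -0.39 for the interferon-inducible GTPases, 9 of 12 below 0, to 0.22 for the signal transducers and regulator. The libraries of the 2 groups did not overlap for 5 of the 39 genes (Oas2, Ifi35, Irf9, Cmpk2 and Gbp2), against 30.9% of all genes. For a single value, 3 against 3 libraries allow no exact permutation p under 0.1.

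**Figure D2:**
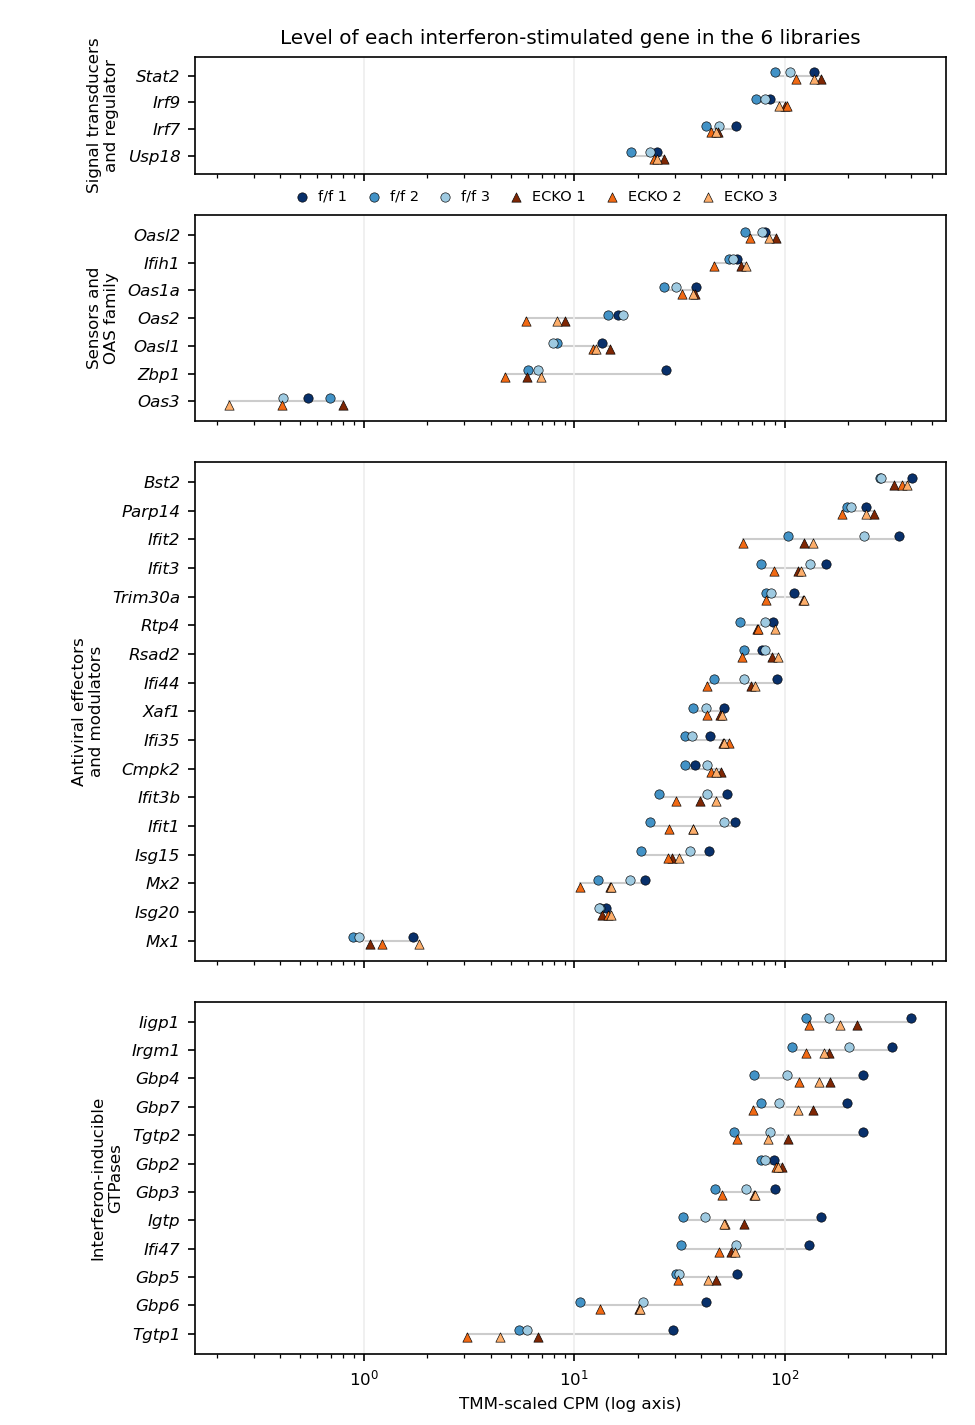
Level of each of the 40 genes (TMM-scaled CPM, log axis) in the 3 f/f libraries (circles) and the 3 ECKO libraries (triangles), sorted by mean level within 4 roles, with a grey line from the lowest to the highest library. CPM is not divided by gene length, so values compare libraries within a row only. The dark circle of f/f replicate 1 stands apart to the right for Zbp1 and for most GTPases, and Oas2 is the gene whose 3 circles all lie to the right of its triangles.

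Among the transducers and the feedback regulator of the pathway none passed the test. Stat2, the type I transducer, was at 138, 90.1 and 106 CPM in f/f replicates 1, 2 and 3 and at 149, 113 and 138 CPM in ECKO replicates 1, 2 and 3. Its DNA-binding partner Irf9 was at 85.6, 72.7 and 80.4 CPM against 99.9, 102 and 94.2 CPM. The ECKO libraries were all above the f/f libraries for Irf9, while those of Stat2 overlapped. The log2 fold change of Irf9 was 0.31 ± 0.10 (SE), with an adjusted p of 0.114 in edgeR's test, and that of Stat2 was 0.26 ± 0.17 with an adjusted p of 0.407. Irf7, a factor that amplifies type I interferon production, was at 58.8, 42.2 and 48.5 CPM in f/f and 48.2, 44.5 and 47.0 CPM in ECKO. Usp18, which strips ISG15 from proteins and dampens signalling at the type I receptor, was at 24.7, 18.7 and 23.0 CPM against 26.8, 23.9 and 24.8 CPM. Neither of these genes separated the groups, and in all 4 genes f/f replicate 2 was the lowest f/f library.

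Oas2 was the single gene of the 40 that passed the test between genotypes. It encodes an enzyme that answers double-stranded RNA by making oligoadenylates, which switch on RNase L, and it lies on mouse chromosome 5 from 120730333 to 120749853 (mm10/GRCm38, minus strand, ENSMUSG00000032690). Its level was 16.1, 14.5 and 17.1 CPM in f/f replicates 1, 2 and 3, from 386, 296 and 414 counts. In the ECKO libraries it was 8.99, 5.87 and 8.31 CPM, from 135, 101 and 145 counts. All f/f libraries were above all ECKO libraries, with a mean of 15.9 ± 1.31 CPM (SD, n = 3) against 7.72 ± 1.64 CPM (SD, n = 3). The log2 fold change was -1.05 ± 0.19 (SE), and edgeR's adjusted p was 0.0307. By the same test 6 of 10 stellate cell markers and 3 of 5 tested B and plasma cell markers were lower in ECKO too (2.79% of all genes were). The log2 fold changes of the stellate cell markers ran from -3.28 (Col1a1) to 0.12 (Hgf). The part of these cells in the Oas2 result was not tested.

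The direction for Oas2 was the same whichever library was left out, but the call was lost on leaving out any of 5 of the 6. Without f/f replicate 1 the adjusted p of edgeR's test was 0.0324. Leaving out f/f replicate 2 gave 0.0518 and leaving out f/f replicate 3 gave 0.115. The values with ECKO replicates 1, 2 and 3 left out were 0.0786, 0.0522 and 0.0876. The log2 fold change stayed between -1.16 and -0.88 in these 6 fits. Over all genes, the number called in them ran from 35 to 1012, the latter without f/f replicate 1, against 552 with all 6 libraries. On all 6 libraries Oas2 was also called by DESeq2 (adjusted p 5.23e-05), which called 11.0% of all genes and Ifi35 beside Oas2 among the 39. It was called by limma-voom (adjusted p 0.0363), which called 2.30% of all genes, and in a fit with a replicate block (adjusted p 0.0326), which called 3.04%.

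None of the other OAS genes that were tested passed the threshold. Oas1a, whose locus lies on the same chromosome from 120896256 to 120907521, was at 37.8, 26.6 and 30.4 CPM in f/f and 37.3, 32.5 and 36.6 CPM in ECKO. Oasl2, an OAS-like protein, was at 81.0, 64.9 and 78.4 CPM against 90.8, 68.3 and 83.8 CPM. Both overlapped between the groups, and their log2 fold changes were 0.17 and 0.12. Oasl1, which restrains the making of Irf7 protein, was at 13.5, 8.30 and 7.91 CPM in f/f and at 14.8, 12.3 and 12.7 CPM in ECKO. Its f/f replicate 1 lay within the ECKO range and the other f/f libraries lay below it, with a log2 fold change of 0.42 ± 0.23 (SE) and an adjusted p of 0.298 in edgeR's test. Whether Oas2 differed from these relatives in its response was not tested.

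Of the nucleic acid sensors, Zbp1 was high in 1 library and Ifih1 was not. Ifih1, which encodes the RNA sensor MDA5, was at 59.5, 54.6 and 57.0 CPM in f/f and 62.1, 46.3 and 65.8 CPM in ECKO, and its groups overlapped. Zbp1, a sensor that can start necroptosis (chromosome 2, 173206612 to 173218923), was at 27.4, 6.04 and 6.75 CPM in f/f and 5.99, 4.71 and 6.94 CPM in ECKO. A single library, f/f replicate 1, was 3.95 times as high as the highest of the other 5, which lay close together. The fitted log2 fold change of Zbp1 was -1.19 ± 0.61 (SE), adjusted p 0.292 in edgeR's test, and without f/f replicate 1 it was -0.12 (adjusted p 0.795).

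The antiviral effectors and modulators, 17 genes, included none that passed the test. Bst2 was at 401, 285 and 286 CPM in f/f and at 331, 362 and 380 CPM in ECKO. Ifi35, a modulator of innate signalling (chromosome 11, 101448407 to 101458698), was at 44.2, 33.7 and 36.3 CPM in f/f and at 50.7, 54.3 and 51.3 CPM in ECKO. Cmpk2, a mitochondrial nucleotide kinase, was at 37.4, 33.7 and 42.8 CPM against 49.9, 44.4 and 47.0 CPM. For Ifi35 and Cmpk2 every ECKO library was above every f/f library, and for Bst2 f/f replicate 1 was above all ECKO libraries while the other f/f libraries were below them. The log2 fold change of Ifi35 was 0.45 ± 0.12 (SE) with an adjusted p of 0.0802 in edgeR's test, and that of Cmpk2 was 0.31 ± 0.12 with an adjusted p of 0.164.

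Ifit2 and Ifit1, whose proteins bind viral RNA, had the widest spread within f/f among these effectors. Ifit2 (chromosome 19, 34550694 to 34576419) was at 351, 104 and 239 CPM in f/f and at 124, 63.3 and 137 CPM in ECKO. Ifit1 was at 58.2, 23.0 and 51.2 CPM against 36.7, 28.2 and 36.8 CPM. In both genes f/f replicates 1 and 3 were above every ECKO library, while f/f replicate 2 lay within or below the ECKO range. The log2 fold change of Ifit2 was -1.10 ± 0.47 (SE) with an adjusted p of 0.226 in edgeR's test, and that of Ifit1 was -0.38 ± 0.33 with an adjusted p of 0.515.

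Ifit3, Ifit3b, Isg15, Mx2 and Ifi44 shared this order within f/f, with replicate 1 highest and replicate 2 lowest. Isg15, a ubiquitin-like modifier, was at 43.6, 20.8 and 35.6 CPM in f/f and at 29.0, 27.9 and 31.6 CPM in ECKO. Ifit3 was at 157, 76.8 and 132 CPM in f/f and 116, 88.7 and 119 CPM in ECKO, and its near-copy Ifit3b followed at 53.1, 25.3 and 42.5 CPM against 39.7, 30.3 and 47.4 CPM. The 3 ECKO libraries of Isg15 and Ifit3 fell inside the span of the f/f libraries. The longest protein-coding transcripts of Ifit3 and Ifit3b were 98% identical over their alignment, and 31.7% of the 100-base windows of Ifit3 also occurred in Ifit3b, so reads may be shared between the pair. Mx2, a dynamin-like GTPase that blocks viruses, had a log2 fold change of -0.39, and Ifi44 one of -0.14. The remaining effectors, Isg20, Mx1, Rsad2, Xaf1, Parp14, Rtp4 and Trim30a, had log2 fold changes from 0.05 (Rtp4) to 0.24 (Trim30a), and none separated the groups.

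By median, the 12 interferon-inducible GTPases were the most variable of the 4 roles, and they varied more within f/f than within ECKO. They comprise guanylate-binding proteins (Gbp2 to Gbp7) and immunity-related GTPases (Iigp1, Igtp, Irgm1, Ifi47, Tgtp1 and Tgtp2), which coat or guard vacuoles and are strongly induced by interferon-gamma. None passed the test between genotypes, and their median log2 fold change was -0.39. The SD of log2 CPM within the f/f group had a median of 0.87 over the 12 GTPases, and within the ECKO group it was 0.30. Over all genes tested the same medians were 0.18 and 0.20. Gbp2 was an exception among the GTPases, with its highest f/f library at 1.16 times its lowest. Summed over the 12 genes, the level was 1979, 676 and 953 CPM in f/f and 1151, 794 and 1024 CPM in ECKO. The sum in f/f replicate 1 was the highest of the 6 and that in f/f replicate 2 the lowest.

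Tgtp1 and Igtp had the widest range. Tgtp1 (chromosome 11, 48985327 to 48994172) was at 29.3, 5.45 and 5.96 CPM in f/f and at 6.72, 3.08 and 4.42 CPM in ECKO. Igtp (chromosome 11, 58199556 to 58207591), whose promoter with the adjacent GAS and ISRE cores is printed above, was at 149, 32.7 and 41.6 CPM against 64.0, 52.1 and 51.3 CPM. In both genes f/f replicate 1 was more than 2 times as high as each other library. For Igtp the other f/f libraries were below every ECKO library. The log2 fold change was -1.52 ± 0.72 (SE) for Tgtp1, with an adjusted p of 0.259 in edgeR's test, and -0.42 ± 0.56 for Igtp, with an adjusted p of 0.683.

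Tgtp1 and Tgtp2 are near-identical copies, and their split is uncertain. The transcripts shared 2804 of 2810 aligned bases, and 80% of the 100-base windows of Tgtp1 also occurred in Tgtp2. Added together, the pair stood at 264, 62.9 and 91.5 CPM in f/f and at 111, 62.6 and 87.3 CPM in ECKO. The sum keeps the same shape, 1 high f/f library and 5 others near one another. Igtp shares 7974 bases, most of its deposited locus, with Irgm2 on the same strand, and Ifi47, Tgtp1 and Tgtp2 overlap the locus of Olfr56. Also on the same strand, Gbp4 shares 23773 bases with Gbp9 and 23774 with Gbp8, nearly all of its locus. Tgtp1 shares 6900 bases with Gm12185 in the same way. The sources used here do not say how reads in such overlaps were assigned.

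Iigp1, Irgm1 and Gbp2 span the behaviour of the remaining GTPases. Iigp1, the most abundant of them per length, was at 398, 126 and 163 CPM in f/f and at 220, 130 and 184 CPM in ECKO. Irgm1, a guard protein that keeps the other immunity-related GTPases off the cell's own membranes, was at 324, 108 and 202 CPM against 162, 126 and 153 CPM. Gbp2 was at 89.4, 77.1 and 80.8 CPM against 97.6, 90.8 and 93.1 CPM. For Gbp2 every ECKO library was above every f/f library, by a small margin (log2 fold change 0.19 ± 0.10 SE, adjusted p 0.280 in edgeR's test), and for Iigp1 and Irgm1 f/f replicate 1 was the highest library. Gbp6, with f/f levels of 42.1, 10.7 and 21.3 CPM, is listed under a second identifier whose f/f levels of 14.1, 4.18 and 6.5 CPM had the same order. The log2 fold changes of the others were -0.62 for Tgtp2, -0.46 for Gbp6, -0.45 for Ifi47, -0.20 for Gbp7, -0.05 for Gbp3, 0.00 for Gbp5 and 0.06 for Gbp4.

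Across the 39 tested genes, f/f replicate 1 was most often the top library. It was the highest of the 6 libraries for 23 of the 39 genes, among them 11 of the 12 GTPases, where 19.3% of all genes had their highest level there. The ratio of f/f replicate 1 to the mean of f/f replicates 2 and 3 had a median of 1.5 over the 39 genes (0.98 for Cmpk2 to 5.13 for Tgtp1) and 2.67 over the GTPases, against 0.99 over all genes. It was at least 2-fold above both other f/f libraries for 8 of the 39 genes, 7 GTPases and Zbp1, where 1.61% of all genes were. It was at least 2-fold above each of the other 5 libraries for 5 of the 39 (Ifi47, Igtp, Tgtp1, Tgtp2 and Zbp1), against 0.431% of all genes, a total of 59. The same 59 genes held Cd274, Cxcl9, Cxcl11 and Gbp10 from a list of 56 further interferon-stimulated genes. These descriptions of 1 library were chosen after its values had been seen.

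At the other end, f/f replicate 2 was low. It was the lowest of the 3 f/f libraries for 37 of the 39 genes, where 32.8% of all genes had their lowest f/f level, and the lowest of all 6 for 27 of the 40. The ratio of f/f replicate 3 to f/f replicate 2 varied between the genes. It was 2.30 for Ifit2, 2.22 for Ifit1 and 1.72 for Ifit3, genes in which f/f replicate 3 approached f/f replicate 1. It was 1.09 for Tgtp1, 1.12 for Zbp1, 1.27 for Igtp and 1.04 for Gbp5, genes in which f/f replicates 2 and 3 were nearer to each other than to f/f replicate 1. Others lay between these patterns, with a ratio of 1.49 for Tgtp2, 1.82 for Ifi47, 1.88 for Irgm1 and 1.99 for Gbp6. In these, f/f replicate 1 was still 2.25, 2.22, 1.60 and 1.98 times the highest of the other 5 libraries. The genes with adjacent GAS and ISRE cores were Tgtp1, Igtp and Tgtp2. Their ratio of f/f replicate 1 to the mean of f/f replicates 2 and 3 was 5.13, 4.01 and 3.29. It was 2.86 for Ifi47, whose window held neither core, and 1.41 for Bst2, which held both. It was 4.28 for Zbp1, 2.75 for Iigp1, 2.70 for Gbp4 and 2.63 for Gbp6, which had no window. Tgtp1 and Tgtp2 may share reads, and a link between the cores and this ratio was not tested.

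Immediate early genes, which rise within minutes of stress or handling of cells, shared the low f/f replicate 2. This list of 17 genes was added after the values had been seen. Its summed level was 14604, 4813 and 13996 CPM in f/f replicates 1, 2 and 3 and 7653, 7490 and 9802 CPM in the ECKO libraries, and f/f replicate 2 was the lowest f/f library for 17 of the 17 genes. Fos, the best-known of them, was at 2399, 738 and 2472 CPM in f/f and at 1356, 1259 and 1839 CPM in ECKO. In f/f replicates 1 and 3 these genes were alike in sum, an order nearer to that of Ifit1 than to that of Tgtp1, Zbp1 and Igtp. By edgeR's test 2 of the 16 tested genes (Egr2 and Nr4a1) were lower in ECKO, where 2.79% of all genes were, and 0 were higher. The log2 fold changes of the list ran from -2.65 (Egr2) to -0.07 (Jund). The part of handling in the levels of the interferon-stimulated genes was not tested.

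**Figure D3:**
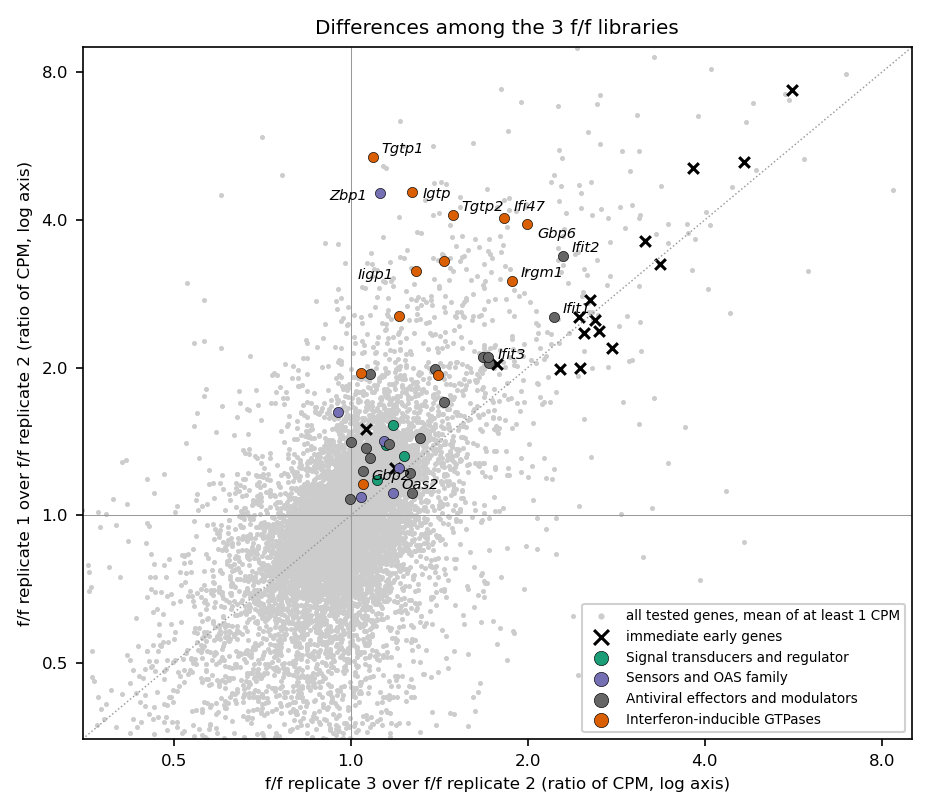
Ratio of f/f replicate 1 to f/f replicate 2 (y axis) against the ratio of f/f replicate 3 to f/f replicate 2 (x axis), both ratios of CPM on log axes cropped to the range shown, for the 39 tested genes by role, for immediate early genes (crosses) and for all tested genes with a mean of at least 1 CPM (grey). Points on the dotted diagonal have equal levels in f/f replicates 1 and 3. Most immediate early genes lie near the diagonal. Ifit1, Ifit2 and Ifit3 lie nearer to it than Tgtp1, Zbp1 and Igtp, which lie far above it at an x value near 1.

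Within the ECKO group the same genes moved less, and replicate 2 was again low. The highest ECKO library was at most 2.18 times the lowest for any of the 39 genes, and the ratio had a median of 1.35 (1.70 in f/f, and 1.3 and 1.27 over all genes in ECKO and f/f). For 32 of the 39 genes the range was wider in f/f than in ECKO, against 46.3% of all genes. ECKO replicate 2 was the lowest ECKO library for 32 of the 39 genes, where 38.8% of all genes had their lowest ECKO level.

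Markers of the other cell types that a liver preparation can hold were read in the same libraries. T and NK cells, the main makers of interferon-gamma, had summed markers of 3.18, 5.11 and 3.56 CPM in f/f and 7.12, 4.59 and 4.59 CPM in ECKO, with f/f replicate 1 the lowest of the 6 and the highest for 0 of the 10 genes. The 10 Kupffer cell and macrophage markers summed to 54.0, 108 and 91.5 CPM in f/f and 67.6 to 94.8 CPM in ECKO, again lowest in f/f replicate 1. The 8 monocyte markers summed to 52.2, 131 and 102 CPM in f/f and 43.7 to 56.1 CPM in ECKO, and the 6 B and plasma cell markers to 7.90, 21.4 and 17.8 CPM and 2.21 to 3.73 CPM. Stellate cell markers, 10 genes, summed to 1593, 2690 and 2845 CPM in f/f and 604 to 988 CPM in ECKO, and 6 of them were lower in ECKO by edgeR's test, as were 3 of the B and plasma cell markers (2.79% of all genes were). Hepatocyte markers, 8 genes, summed to 1789, 1172 and 1233 CPM in f/f and 1488, 2124 and 1026 CPM in ECKO, with f/f replicate 1 the highest f/f library and ECKO replicate 2 the highest of all. Cholangiocyte markers, 6 genes, summed to 214, 603 and 344 CPM in f/f and 140 to 189 CPM in ECKO, and neutrophil markers, 8 genes, to 14.3 to 26.7 CPM and 1.16 to 6.06 CPM. By edgeR's test 1 of 4 tested neutrophil markers (Mpo) was lower in ECKO (2.79% of all genes were). Higher were 2 of 12 LSEC markers (Pecam1 and Clec1b) and 1 of 3 tested dendritic cell markers (Clec9a), where 1.24% of all genes were. The other LSEC markers had log2 fold changes from -0.11 (Fcgr2b) to 0.39 (Oit3). Of the other tested dendritic cell markers, Itgax was at -2.33 and Zbtb46 at -0.18, and neither passed. The deposited loci of Clec9a and Clec1b overlap on the same strand. The neutrophil marker Ly6g had 0 counts in all 6 libraries. Siglech, the marker of plasmacytoid dendritic cells, which are the main makers of type I interferon, was at 0.627, 0.393 and 0.290 CPM in f/f and 0, 0.174 and 0.229 CPM in ECKO. Of the 8 dendritic cell markers, Zbtb46 (175 to 239 CPM) and Clec9a (14.7 to 29.2 CPM) made up nearly all of the summed 194 to 259 CPM, and f/f replicate 1 was highest for 2 of the 8. The other dendritic cell markers were at most 2.31 CPM in any library (Itgax in f/f replicate 2), so the sum rests on Zbtb46 and Clec9a. The part of these cells in the levels of the interferon-stimulated genes was not tested.

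With f/f replicate 1 left out, most of the 39 genes were higher in ECKO than in f/f, few of them past the threshold. Their median log2 fold change was 0.21 (0.02 over all genes in that fit), and 32 of the 39 were above 0, where 53.1% of all genes were. The median of the GTPases moved from -0.39 to 0.26. In that fit 3 of the 39 genes passed the test, against 7.22% of all genes. Oas2 remained lower in ECKO, Ifi35 was higher (0.58, adjusted p 0.0239 in edgeR's test) and Oasl1 was higher (0.72, adjusted p 0.0415). Among the rest, Gbp4 had a log2 fold change of 0.72 and Igtp of 0.59, neither past the threshold. Leaving out f/f replicate 2 moved the median as far the other way, to -0.21. The direction of the list thus depended on which f/f library was left out. The median was -0.07 without f/f replicate 3, and -0.05, 0.10 and -0.07 without ECKO replicates 1, 2 and 3.

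**Figure D4:**
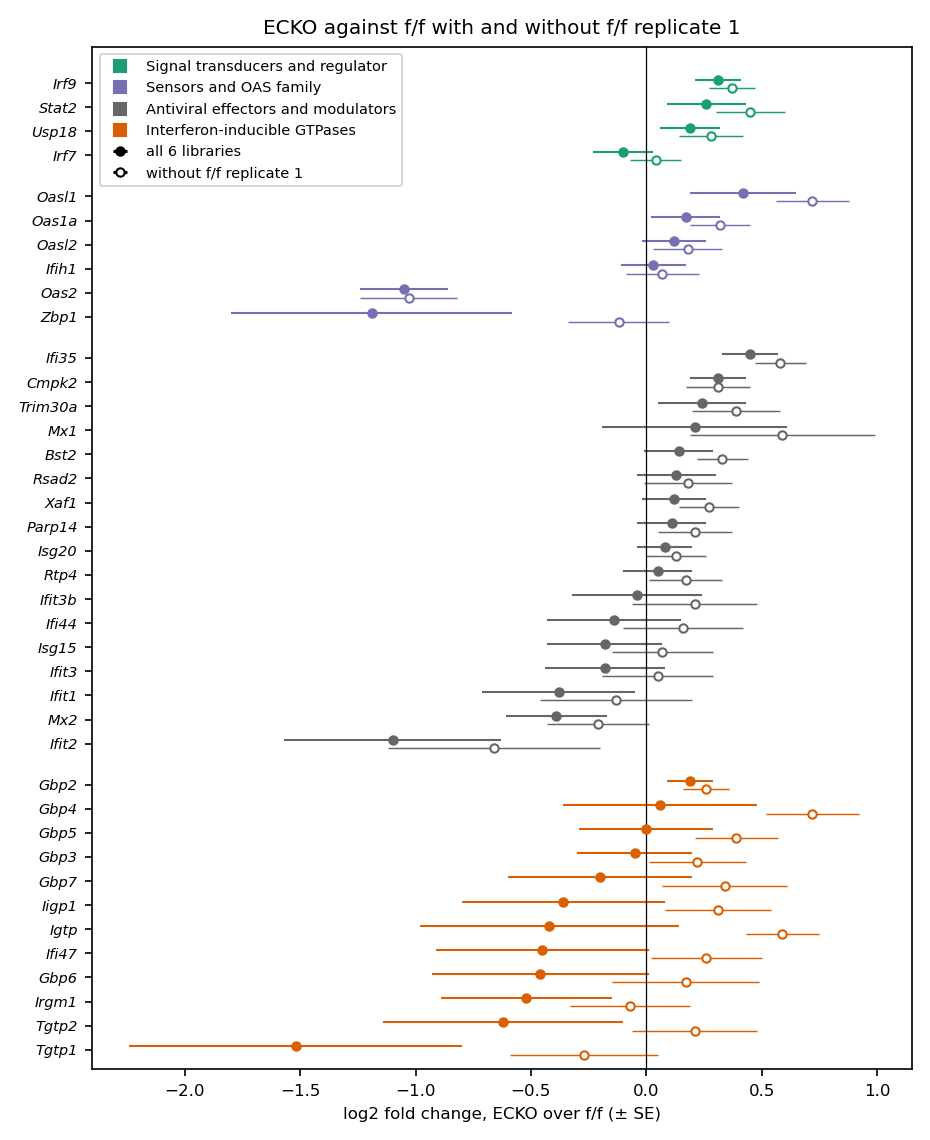
Log2 fold change of ECKO over f/f with its SE (x axis) for the 39 tested genes, grouped by role, from all 6 libraries (filled) and without f/f replicate 1 (open). The open points of the GTPases, Zbp1 and Ifit2 lie to the right of the filled points, and Oas2 keeps its place at -1.05 and -1.03.

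The genes that make, receive and relay interferon were examined as lists chosen for the pathway. Interferon transcripts were barely detected at this depth. Of 21 ligand genes, 18 had 0 counts in all 6 libraries and none passed the filter on low counts. Ifng, which encodes interferon-gamma, had 0, 1 and 0 counts in f/f and 0, 0 and 2 counts in ECKO, and Ifnb1 had 1 count and Ifnz 2 counts, all in f/f replicate 3. A count of 0 in 1 library allows up to 3 counts, and such limits cover counting error only.

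The type I and interferon-gamma receptors were expressed in every library. Of 6 receptor genes, 5 were tested and 0 passed. The type I receptor chains Ifnar1 and Ifnar2 were at 82.1 ± 4.45 and 103 ± 10.4 CPM in f/f (SD, n = 3) and at 74.9 ± 10.4 and 107 ± 6.04 CPM in ECKO (SD, n = 3). The interferon-gamma receptor chains Ifngr1 and Ifngr2 were at 64.6 ± 7.68 and 64.3 ± 5.43 CPM in f/f and at 69.4 ± 6.93 and 55.2 ± 2.53 CPM in ECKO. The 3 ECKO libraries of Ifngr2 were below those of f/f, with a log2 fold change of -0.22 ± 0.10 (SE) and an adjusted p of 0.235 in edgeR's test. Il10rb, the shared chain of the type III receptor, was at 82.6 ± 6.43 CPM against 82.0 ± 5.03 CPM, and its partner Ifnlr1 was too low to test.

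Of the JAK-STAT and IRF factors, Irf1 repeated the f/f pattern of Ifit2. Irf1, a transcription factor that interferon induces early, was at 279, 72.7 and 213 CPM in f/f and at 84.5, 93.8 and 113 CPM in ECKO. It was high in f/f replicates 1 and 3, and f/f replicate 2 lay below every ECKO library. Its log2 fold change of -0.96 did not pass the test (adjusted p 0.255 in edgeR's test). Of the 9 JAK-STAT and IRF factors tested, 0 passed. The kinase Jak1 was at 1227 ± 64.8 CPM in f/f and 1845 ± 360 CPM in ECKO (SD, n = 3), with a log2 fold change of 0.59 ± 0.16 (SE). Its groups did not overlap, and its adjusted p was 0.0783. Irf3, the factor that nucleic acid sensors activate, was at 68.0 ± 2.37 CPM against 88.4 ± 6.29 CPM (adjusted p 0.0663), and the kinase Tyk2 at 56.5 ± 4.85 CPM against 68.6 ± 4.42 CPM (adjusted p 0.160).

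Among negative regulators, 8 genes, none passed the test. Socs1, which blocks JAK kinases and is induced by them, was at 35.2, 5.55 and 26.1 CPM in f/f and at 9.39, 11.0 and 15 CPM in ECKO. As for Irf1, f/f replicates 1 and 3 were high and f/f replicate 2 was low. Ptprc, the phosphatase CD45 of blood cells, was at 5.94 ± 1.81 CPM in f/f and 2.63 ± 0.662 CPM in ECKO (adjusted p 0.0795), and its groups did not overlap. Pias4 was at 26.1 ± 1.29 CPM against 31.0 ± 1.89 CPM (adjusted p 0.199), and Ptpn6 at 4.92 ± 1.29 CPM against 3.40 ± 0.914 CPM (adjusted p 0.316).

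Of 21 sensors and adaptors, 19 were tested, 1 was lower in ECKO (2.79% of all genes were) and 0 were higher. The one that fell was Ikbke, the kinase IKK-epsilon that activates IRF factors (chromosome 1, 131254343 to 131279606). It was at 3.55, 4.67 and 4.72 CPM in f/f and at 1.80, 1.34 and 1.09 CPM in ECKO, with every f/f library above every ECKO library. Its log2 fold change was -1.62 ± 0.29 (SE), and its adjusted p in edgeR's test was 0.0307. Mavs, the adaptor of the RNA sensors, was at 49.2 ± 1.06 CPM in f/f and 55.9 ± 0.956 CPM in ECKO (adjusted p 0.239), and Dhx58, an RNA sensor, was at 17.4 ± 1.95 CPM against 21.2 ± 3.31 CPM (adjusted p 0.315).

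Of 56 further interferon-stimulated genes, 54 were tested, 2 were lower in ECKO and 0 were higher, where 2.79% and 1.24% of all genes were. Slfn2, a regulator of immune cell quiescence (chromosome 11, 83065112 to 83070678), was at 17.1, 23.3 and 23.7 CPM in f/f and 10.3, 8.25 and 9.0 CPM in ECKO. Ifi27l2a (chromosome 12, 103442167 to 103443680) was at 12.1, 14.1 and 14.2 CPM against 5.26, 4.07 and 7.97 CPM. Neither gene overlapped between the groups, and in both f/f replicate 1 was the lowest f/f library. The log2 fold changes were -1.22 ± 0.17 (SE, adjusted p 0.0153 in edgeR's test) for Slfn2 and -1.23 ± 0.25 (SE, adjusted p 0.0399) for Ifi27l2a. In Slfn2, Ifi27l2a, Ikbke and Ptprc, f/f replicate 1 was the lowest f/f library and all ECKO libraries lay below it, as in the sums of the stellate cell, cholangiocyte and B and plasma cell markers, and the part of those cells in the result was not tested. Sp100, a nuclear body protein, was at 211 ± 9.55 CPM in f/f and 277 ± 15.4 CPM in ECKO (adjusted p 0.0617), with groups that did not overlap. The chemokines Cxcl9 and Cxcl10, ligands that draw T cells, were at 374, 106 and 176 CPM and at 843, 104 and 424 CPM in f/f, and at 133, 85.8 and 134 CPM and 184, 149 and 264 CPM in ECKO. Both chemokines were highest in f/f replicate 1, as were 11 of the 12 GTPases. Cxcl10 was also high in f/f replicate 3, as Irf1 was.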

How the data were processed

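RNA of 6 LSEC libraries (3 f/f, 3 labelled ECKO, all after CCl4) was sequenced. Per the submitters' processing notes, HISAT2 2.0.4 and StringTie 1.3.0 were named, without roles, with builds mm10 and GRCm38.p4. The sources used here give no counter, annotation or strand setting, so reads of overlapping or near-identical genes are uncertain. Per the file headers the authors deposited raw counts per gene (whole numbers, not normalized) and FPKM for each library. FPKM was used only to rank genes by level. The number of unused columns with per-sample values was 0.

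Counts were analysed with edgeR 4.0.16 in R 4.3.3: filterByExpr (minimum count 10, minimum total 15, leaving 13692 of 34745 genes), TMM scaling, a robust quasi-likelihood fit with genotype as the only term, a two-sided test and Benjamini-Hochberg adjustment over all genes tested, with a threshold of 0.05. Group values are mean ± SD of 3 libraries. The model was tested on simulated data. Alternatives were other scalings, no filter, DESeq2 1.42.0, voom in limma 3.58.1, a replicate block and leaving out each library.

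All 40 genes are named, as are those of other lists by a rule: the receptors, Irf1, Ifng and up to 3 tested genes with the smallest p in each pathway list. Values of every library are given for genes past the threshold and, in each role, for the most abundant, the 3 with the smallest p and the 2 with the widest spread. Ifnb1, Ifnz, Socs1, Cxcl9, Cxcl10, Cxcl11, Cd274, Gbp10 and Fos are outside this rule; they, like the immediate early genes, were picked with their values in view. The genes and lists were chosen with earlier results of these data known. Promoter sequences are from RefSeq (GRCm38.p6). All 40 identifiers matched their symbol in the reference table. Identity of near-copies was computed with Biopython 1.88 on the longest protein-coding GENCODE transcripts in place of proteins, which were not used here. A gene of the pathway lists is not reported here.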

Additional observations from a re-analysis of the deposited data

How the results depend on the processing

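Over all genes, the number called at an adjusted p under 0.05 was 552, and it stayed within 1.5 times of that with the size factors of DESeq2, without the filter on low counts and with the replicate block. It was 1272 with total count scaling, 1508 with DESeq2 and 315 with limma-voom, and it ranged from 35 to 1012 when each library was left out in turn; the cause was not tested. Of the 39 tested interferon-stimulated genes, 1 was called, and 2 were called with DESeq2 (Oas2 and Ifi35) and 2 with the replicate block (Oas2 and Ifit2), with a range of 0 to 3 when each library was left out; the cause was not tested. Their median log2 fold change ranged from -0.21 to 0.21 without each library, and total count scaling shifted the median of all genes from 0.01 to -0.22.

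The labels do not say whether libraries with the same replicate number belong together. Same-numbered libraries deviated together with correlations of 0.095, 0.152 and -0.052 over 13692 genes, and other pairs with -0.153 to 0.091. With 3 libraries per group, such values cannot decide whether the numbers mark pairs. With the block, 416 genes were called, and Ifit2 had a log2 fold change of -1.01 (adjusted p 0.0459 in edgeR's test).

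Of the 39 genes, Oas2, the one called, kept its direction in every setting run. Among genes not called, Gbp5 turned to -0.02 with the size factors of DESeq2 and -0.01 with DESeq2. With total count scaling Isg20 (-0.15), Oasl2 (-0.13), Oas1a (-0.06), Rsad2 (-0.11), Usp18 (-0.05), Ifih1 (-0.22), Gbp2 (-0.05), Gbp4 (-0.13), Gbp5 (-0.21), Xaf1 (-0.11), Bst2 (-0.07), Parp14 (-0.13), Rtp4 (-0.18), Trim30a (-0.001) fell below 0. When each library was left out in turn, the estimates that crossed 0 ranged from -0.42 to 0.05 for Ifit3, from -0.29 to 0.21 for Ifit3b, from -0.43 to 0.07 for Isg15, from -0.05 to 0.59 for Mx1, from -0.21 to 0.04 for Irf7, from -0.36 to 0.16 for Ifi44, from -0.07 to 0.17 for Ifih1, from -0.27 to 0.22 for Gbp3, from -0.25 to 0.72 for Gbp4, from -0.17 to 0.39 for Gbp5, from -0.82 to 0.17 for Gbp6, from -0.45 to 0.34 for Gbp7, from -0.66 to 0.31 for Iigp1, from -0.78 to 0.59 for Igtp, from -0.10 to 0.17 for Rtp4, from -0.81 to 0.26 for Ifi47, from -0.97 to 0.21 for Tgtp2.

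Oas3 and the interferon genes had too few counts to be tested.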
